A study of Mus musculus with 6 samples.

Results

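The promoters described here are those of 4 genes that act on Wnt signalling outside the cell or at its surface, Wnt5a, Rspo2, Lgr5 and Dkk1. They were taken by gene symbol from a deposited table of 235 promoters, and each symbol has 1 row there. ATAC-seq, in which the Tn5 transposase cuts and tags open DNA, was run on amputated limb explants of wild-type (WT) mice of the outbred CD-1 stock. Of the 6 libraries, 3 came from culture at an air-liquid interface (ALI) and 3 from culture in 96-well plates, both collected 1 day after amputation. The labels give 4 limbs for each culture, name no age for the mice, and leave unsaid whether separate animals were used. P-values therefore reflect spread from library to library, and that spread may be purely technical. In the fits of signal level it was pooled over promoters or segments of like signal. By its title the series deals with how sensing of oxygen starts regeneration, and the comparison asks how the cultures differed in promoter accessibility.

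Wnt ligands bind Frizzled receptors, with LRP5 or LRP6 as co-receptors when the signal runs through β-catenin. Wnt5a is a ligand best known for signalling without β-catenin, and it is needed for outgrowth of the limb. Rspo2 is a secreted R-spondin. R-spondins bind receptors of the Lgr family, Lgr5 among them, and so keep Frizzled and LRP receptors from being removed from the cell surface. Rspo2 is needed to maintain the apical ectodermal ridge, the signalling edge of the limb bud, and Lgr5 marks stem cells of several epithelia. Dkk1 is a secreted inhibitor that binds LRP5 and LRP6. It is itself a target of β-catenin signalling, and limbs without it form extra or fused digits. Wnt5a, Rspo2 and Lgr5 are called activators below and Dkk1 the inhibitor.

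Each window ran from 1000 bp upstream to 1000 bp downstream of a transcription start site (TSS), in 100 bins of 20 bp. In GRCm39, the build named in the submitters' processing notes, the TSS of Wnt5a is at position 28226708 of chromosome 14 (plus strand). That of Rspo2 is at 43034223 of chromosome 15 (minus strand). The Lgr5 TSS is at 115423686 of chromosome 10 (minus strand), and the Dkk1 TSS at 30527066 of chromosome 19 (minus strand). Exons and introns within the windows are left out, since no annotation of that build was used.

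A RefSeq promoter sequence was matched by symbol for 1 of the 4 genes, Dkk1. It is shown because Dkk1 is a known target of TCF/LEF factors, the nuclear end of the β-catenin pathway, and because the relative signal around its TSS differed between the cultures. It covers 250 bases before and 50 after the RefSeq start in GRCm38.p6, chr19:30549447-30549746, minus strand. That is another build than that of the signal, so it was not laid over the bins. Capitals mark matches to the TCF/LEF core motifs and to the TATA box.

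Dkk1 promoter: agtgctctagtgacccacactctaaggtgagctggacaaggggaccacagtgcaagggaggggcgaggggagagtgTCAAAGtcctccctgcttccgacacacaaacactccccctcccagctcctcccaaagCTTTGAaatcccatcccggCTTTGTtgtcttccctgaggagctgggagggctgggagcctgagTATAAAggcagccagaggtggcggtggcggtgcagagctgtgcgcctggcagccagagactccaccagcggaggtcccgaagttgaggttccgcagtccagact

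The TCF/LEF core CTTTGA matched at −174 (on the opposite strand) and at −117, and its variant CTTTGT at −98, counting the first printed base of each match from the start site. The TATA box TATAAA matched at −54. None of these matches overlapped. Searched on both strands, CTTTGA occurred in 16% of the 32851 RefSeq promoters of the same length, CTTTGT in 18.7% and TATAAA in 13.6%. The GC box GGGCGG (35.7% of promoters) and the hypoxia response cores ACGTG (19.6%) and GCGTG (32.4%) had 0 matches in the Dkk1 window. All matches given here are matches of letters, not measured binding sites.

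All 4 windows were accessible in all 6 libraries, at levels near the middle of the table. Values are depth-normalized coverage as deposited, called signal here, averaged over the window. By mean signal over the libraries, Wnt5a ranked 87 of 235, Lgr5 98, Rspo2 118 and Dkk1 141. The order was not wholly fixed: Wnt5a was above Lgr5 in 4 of 6 libraries, with a ratio of 0.977 to 1.14, so these neighbours did not differ beyond their spread. Both were above Rspo2 in 6 of 6 libraries, by 1.12 to 1.54-fold across the pairs. Rspo2 was above Dkk1 in 6 of 6, by 1.12 to 1.61-fold.

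Signal over the Wnt5a window was 12, 19.2 and 12.1 in ALI replicates 1 to 3 and 11.97, 12.94 and 18.08 in 96-well replicates 1 to 3. The groups overlapped throughout, and the high libraries were ALI replicate 2 and 96-well replicate 3. The same libraries were the highest at every member. Over the Rspo2 window the signal was 7.99, 12.97 and 8.55 in ALI and 9.39, 10.17 and 14.48 in 96-well libraries. Lgr5 had 12.28, 17.46 and 11.58 in ALI against 11.99, 11.38 and 17.24 in 96-well culture. Dkk1 had 7.14, 8.03 and 6.38 against 7.31, 6.85 and 10.6. As deposited, the groups overlapped at all 4 promoters.

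The high libraries were high over the whole table. Median deviation from the promoter means was 0.38 log2 units in ALI replicate 2 and 0.20 in 96-well replicate 3, and between −0.23 and −0.02 in the others. The signal that 1 read per base adds, read from the steps between low values, put the members' windows at 48.9 to 220.5 reads per base on average. Total reads per library are unknown. Of marker genes of limb cell types, the table held 9 of 9 for the apical ectodermal ridge, 2 of 7 for ectoderm and epithelium (Trp63 and Cdh1) and 1 of 8 for limb mesenchyme (Msx1). None of those listed for cartilage, muscle, endothelium and blood was in the table, so the makeup of the explants could be checked in part only. A change in the share of cells with an open promoter and a change within cells cannot be told apart.

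**Figure D1:**
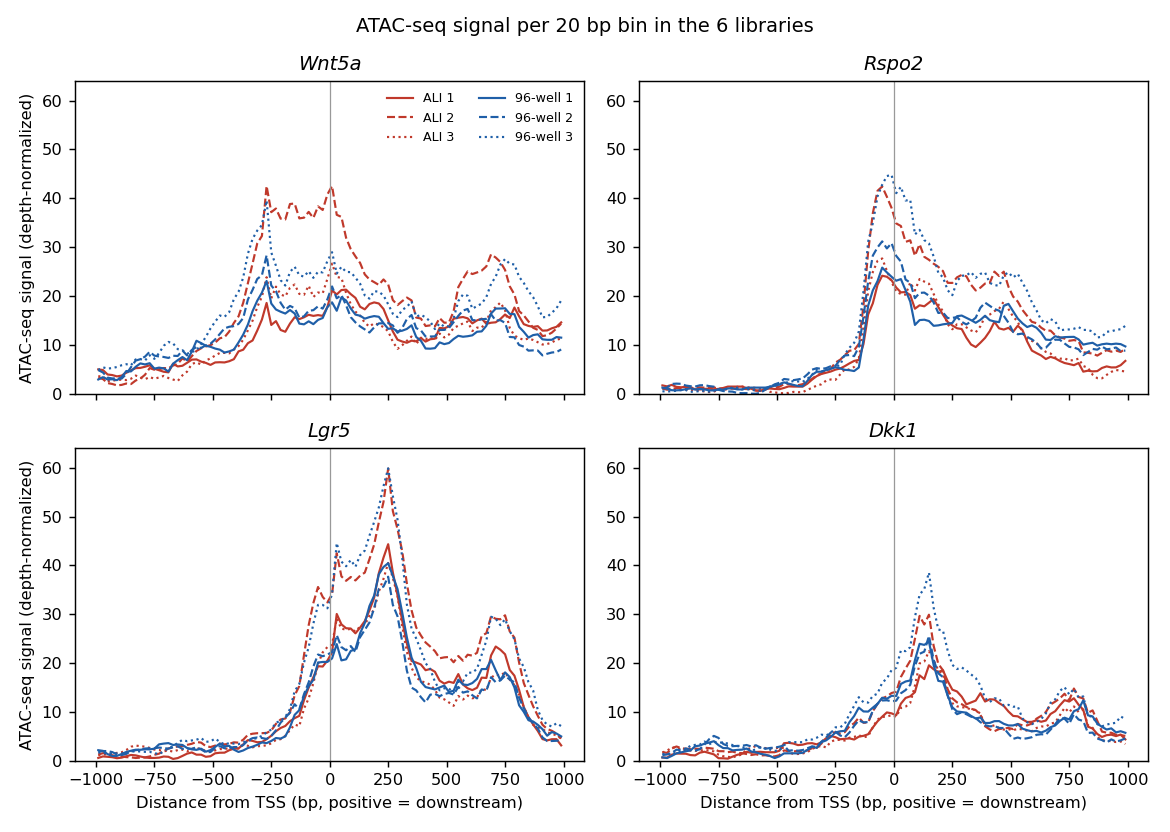
ATAC-seq signal (y axis, depth-normalized) per 20 bp bin against distance from the TSS (x axis, bp) for the 4 promoters, 1 line per library, ALI in red and 96-well in blue. Rspo2 peaks at −50 or −10 bp, Lgr5 at 250 bp and Dkk1 at 150 bp in every library, while Wnt5a has a broad plateau.

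The signal was placed differently at each of the 4 promoters. Rspo2 rose from almost no upstream signal to its highest bin at −50 bp in 5 libraries and −10 bp in 96-well replicate 3, then fell off slowly into the gene. Lgr5 had its highest bin at 250 bp downstream of the TSS and Dkk1 at 150 bp, in 6 of 6 libraries each. In the table, 71 promoters (30.2%) peaked 100 bp or more downstream. The Wnt5a signal was spread most widely. Its mean profile stayed at or above 50% of its peak over 940 bp, against 660 bp at Rspo2, 400 bp at Lgr5 and 240 bp at Dkk1, with a median of 420 bp over the 235 promoters.

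More of the signal lay downstream than upstream of the TSS at all 4 in all 6 libraries, by far at 3 of them. The downstream share was 79.7% ± 2.09 (SD, n = 6 libraries) at Lgr5, 73.6% ± 3.49 at Dkk1 and 72.6% ± 1.93 at Rspo2, and 56.4% ± 3.5 at Wnt5a. The median over the table was 55.1% and the upper quartile 63.9%, so Lgr5 (rank 19 of 235), Dkk1 (35) and Rspo2 (36) lay among the more downstream-weighted promoters and Wnt5a (109) near the middle. The highest bin of Wnt5a was at −270 bp in 4 libraries, at 70 bp in ALI replicate 1 and at 10 bp in ALI replicate 3.

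A second, lower peak inside the gene was visible at Wnt5a, Lgr5 and Dkk1 and absent at Rspo2. The ratio of the highest bin between 600 and 900 bp to the lowest bin between 300 and 600 bp was 1.39 to 2.08 over the 6 libraries at Wnt5a, 1.46 to 2.12 at Lgr5 and 1.61 to 2.44 at Dkk1. At Rspo2 it was 0.911 to 0.994. Those ranges of positions were set after the profiles were seen. The same ratio was above 1 at 167 of the 235 promoters, with a median of 1.15, and 75 promoters were at or above the lowest of the 3 genes, so a second peak was not particular to them.

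In the form of its profile the inhibitor was closer to Lgr5 and Rspo2 than Wnt5a was. Over the 100 bins, on a log2 scale averaged over the libraries, the Dkk1 profile correlated with Lgr5 at r = 0.96 and with Rspo2 at r = 0.93, and Lgr5 with Rspo2 at r = 0.94. Wnt5a was less like the other three, at r = 0.74 to 0.77. Neighbouring bins share reads, so these values are descriptions. Between cultures the profiles of a promoter were as alike as within a culture at Lgr5, and somewhat less alike at the others by their lowest r. For Lgr5, r between an ALI and a 96-well library was 0.97 to 0.99, as high as within a culture (0.96 to 0.98). For Wnt5a it was 0.77 to 0.95 between cultures and 0.89 to 0.97 within. For Rspo2 it was 0.91 to 0.99 and 0.96 to 0.99, and for Dkk1 0.84 to 0.96 and 0.91 to 0.97. The promoters of the table with the most similar profiles over the 100 bins were Jag2 (r = 0.90), Sptbn1 (0.89) and Dusp10 (0.88) for Wnt5a, and Zranb2 (0.99), Crebzf (0.98) and Bmp4 (0.97) for Rspo2. For Lgr5 they were Tmed8 (0.97), Gm8066 (0.96) and Dkk1 (0.96), and for Dkk1 they were Timeless (0.97), Notch4 (0.96) and Gm8066 (0.96).

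Over whole windows on the deposited scale, none of the 4 promoters passed the test between the cultures. The values were compared as log2(signal + 1.06), ALI minus 96-well, with limma across all 235 promoters and Benjamini-Hochberg adjustment. Changes were 0.00 ± 0.31 (SE) at Wnt5a, −0.19 ± 0.28 at Rspo2, 0.02 ± 0.30 at Lgr5 and −0.16 ± 0.24 at Dkk1, with limma adjusted p from 0.866 to 0.997. On this scale 0 of 235 promoters (0%) passed the threshold of 0.05, 7 had an unadjusted p under it, and 14 (5.96%) had groups that did not overlap. The median change over all promoters was 0.14 on this scale and −0.03 after the centring described next.

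After each library was centred on its median deviation, Rspo2 and Dkk1 stood lower in ALI explants, and Wnt5a and Lgr5 did not pass the test. The centred log2 level of Rspo2 was 3.27, 3.43 and 3.28 in ALI replicates 1 to 3 and 3.62, 3.68 and 3.76 in 96-well replicates 1 to 3. All 3 ALI libraries lay below all 3 from 96-well culture. Its change was −0.36 ± 0.09 (SE; limma adjusted p = 0.0023). Dkk1 was at 3.13, 2.80 and 2.91 in ALI and 3.30, 3.18 and 3.35 in 96-well libraries, again without overlap, and changed by −0.33 ± 0.10 (limma adjusted p = 0.0095). Wnt5a changed by −0.17 ± 0.09 (limma adjusted p = 0.16) and Lgr5 by −0.14 ± 0.09 (limma adjusted p = 0.25), with overlapping groups. The Dkk1 call ended without ALI replicate 2 (−0.24, limma adjusted p = 0.10) or 96-well replicate 1 (−0.32, limma adjusted p = 0.057). Of the table, 24 promoters (10.2%) were called lower, 27 were called higher and 41 (17.4%) were lower without overlap. The variance in this fit and in the one as deposited came wholly from the trend over promoters of like signal. It was not estimated from each promoter's own libraries. Without that trend neither Rspo2 (limma adjusted p = 0.064) nor Dkk1 (limma adjusted p = 0.093) was called.

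**Figure D2:**
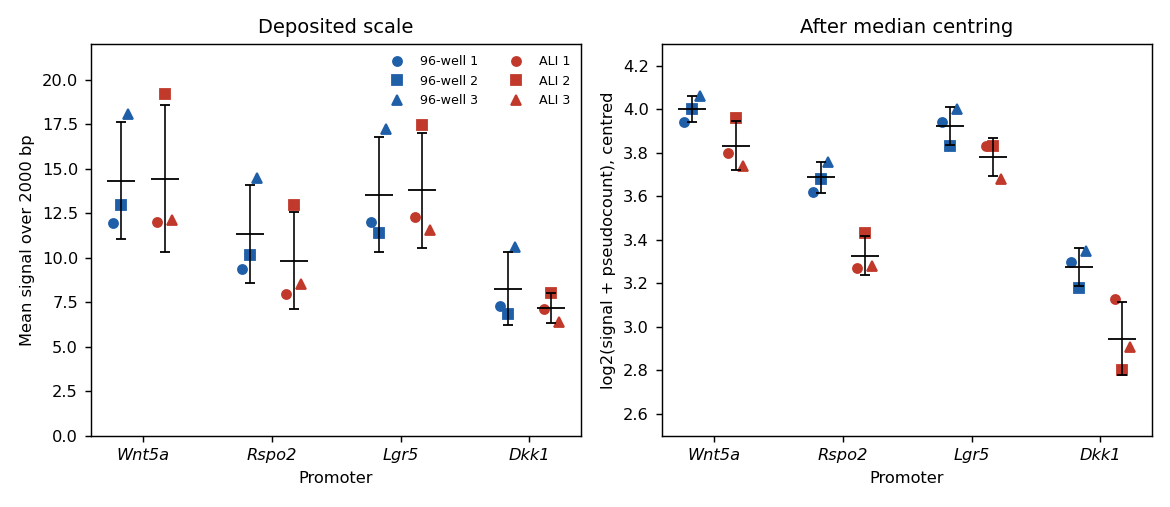
Window signal of each promoter in the 6 libraries (points, 96-well blue and ALI red, marker shape by replicate), as deposited (left) and as centred log2 values (right), with mean and SD bars (n = 3). The groups overlap everywhere on the left and are separate at Rspo2 and Dkk1 on the right.

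Most markers of the apical ectodermal ridge and of epithelium were also lower in ALI after centring. Of 9 ridge markers, 8 had lower values in ALI, as did 55.7% of all promoters. Their median change was −0.19 (range −0.40 to 0.01). Of these, 5 did not overlap, against 17.4% of promoters lower without overlap. Just 1 was called, against 10.2% of promoters called lower: Fgf8, the ridge's growth factor (−0.40 ± 0.10, limma adjusted p = 0.0020). Both epithelial markers were lower without overlap, Trp63 at −0.40 and Cdh1 at −0.25, and so was Msx1 of the mesenchyme at −0.19, with none called. Change rose with signal across the 235 promoters, whose median signal was 10.59. Mean signal was 1.95 to 14.4 at the ridge markers and 1.81 and 5.97 at the epithelial ones. The shares of all promoters given here are not matched for signal, so they do not set these markers apart from other weak promoters. As deposited, the summed window signal of the ridge markers was 53.7 to 72.1 in ALI and 52.2 to 75.9 in 96-well libraries, and that of the epithelial markers 6.76 to 8.37 and 6.86 to 10.4. Their part in the changes at Rspo2 and Dkk1 was not tested.

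The choice of scaling decided which members were called over whole windows. With quantile normalization, where 8.09% of promoters were called lower, Rspo2 (−0.28, limma adjusted p = 0.021) and Wnt5a (−0.21, limma adjusted p = 0.038) were, and Dkk1 was not (−0.17, limma adjusted p = 0.23). Cyclic loess, which removes the relation between signal and change seen across the table, gave the same 2 calls (Rspo2 −0.29, limma adjusted p = 0.0024, and Wnt5a −0.20, limma adjusted p = 0.014) against 12.8% of promoters called lower. Scaling to equal signal at the window edges called Rspo2 (−0.29, limma adjusted p = 0.017) and Dkk1 (−0.25, limma adjusted p = 0.045), against 6.38%, and called 58 promoters higher and 15 lower. Rspo2 was thus the member called under all 4 relative scalings. Lgr5 was called under none of them.

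**Figure D3:**
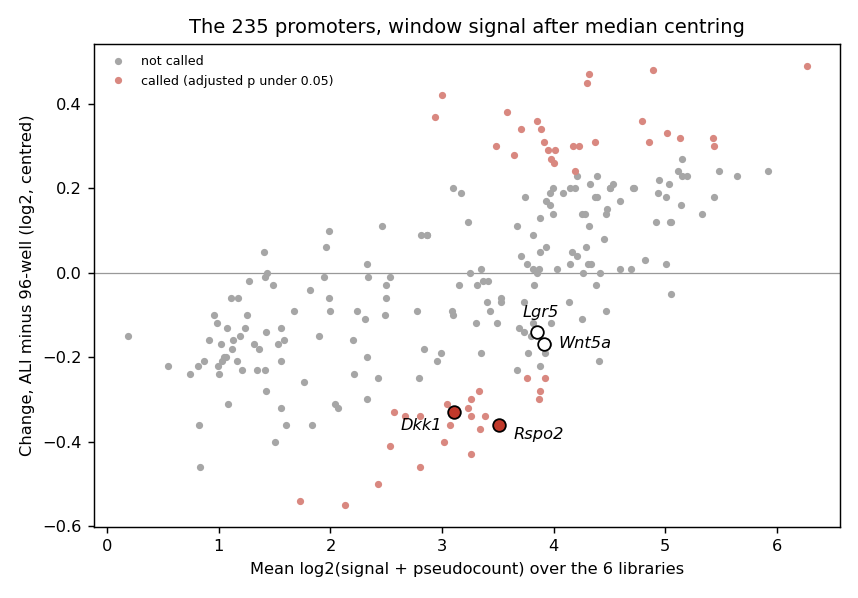
Change between cultures (y axis, ALI minus 96-well, log2, centred) against mean log2 signal (x axis) for the 235 promoters, called ones in pink and the 4 members ringed in black (filled where called). Change rises with signal across the table. Rspo2 (−0.36) and Dkk1 (−0.33) lie near the lower edge of promoters of like signal, Wnt5a (−0.17) and Lgr5 (−0.14) inside the cloud.

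Around the TSS the inhibitor had the largest relative decrease of the 4 in ALI explants. Over the central 400 bp the deposited signal of Dkk1 was 10.99, 16.37 and 11.36 in ALI and 14.99, 13.99 and 20.93 in 96-well libraries. These groups overlapped, and the change as deposited was −0.34 ± 0.32 (SE; limma adjusted p = 0.67). After centring, the levels were 3.70, 3.65 and 3.63 in ALI and 4.31, 4.16 and 4.28 in 96-well libraries, with no overlap, as at 17.4% of promoters in this direction, and little spread within a culture. Relative to the table, Dkk1 fell by 0.59 ± 0.13 (SE; limma adjusted p = 2.3e-04), the 9th lowest change of 235. It stayed called without the variance trend (limma adjusted p = 0.044), with quantile normalization (−0.37, limma adjusted p = 0.020), with cyclic loess (−0.40, limma adjusted p = 0.0073), with equal edges (−0.44, limma adjusted p = 0.014) and with each library left out (−0.64 to −0.56). In this region 11.5% of promoters were called lower after centring. Rspo2 was among them (−0.32 ± 0.12, limma adjusted p = 0.035), a call lost with a pseudocount of 1 times the median (limma adjusted p = 0.072), with cyclic loess (limma adjusted p = 0.067), with equal edges (limma adjusted p = 0.40), without the trend (limma adjusted p = 0.16) and without any of 4 libraries (ALI replicates 1 and 3, 96-well replicates 2 and 3; limma adjusted p up to 0.154). Lgr5 (−0.23 ± 0.12, limma adjusted p = 0.15) and Wnt5a (0.02 ± 0.12, limma adjusted p = 0.92) were not, though Lgr5 was called with the 58 lowest promoters left out (−0.28, limma adjusted p = 0.013).

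Ridge markers were lower here as well: 8 of 9 had lower values in ALI (median −0.31, range −0.60 to 0.08), and 3 were called, Fgf8 (−0.60, limma adjusted p = 3.8e-04, the 8th lowest change, next to Dkk1), Fgf17 (−0.54, limma adjusted p = 0.044) and Dlx6 (−0.53, limma adjusted p = 0.0032). Of all promoters, 11.5% were called lower in this region. The epithelial markers Trp63 (−0.48) and Cdh1 (−0.32) were not called. Their summed signal in this region, as deposited, was 62.2 to 88.0 in ALI and 57.9 to 93.5 in 96-well libraries for the ridge, and 13.4 to 20.5 and 12.3 to 22.9 for the epithelium. Their part in the Dkk1 result was not tested.

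Relative to Dkk1 in the same library, all 3 activators stood higher around the TSS in ALI than in 96-well explants. This difference needs no scaling of libraries apart from the added 1.06. The central 400 bp held the highest bin of Dkk1 (150 bp) and of Rspo2. They did not hold that of Lgr5 (250 bp) or, in most libraries, of Wnt5a (−270 bp). For those genes the pairs therefore did not compare peak with peak. Over the central 400 bp, Wnt5a exceeded Dkk1 by 0.63, 1.00 and 0.76 log2 units in ALI and by 0.12, 0.25 and 0.20 in 96-well libraries, a difference of 0.61 between the cultures. For Rspo2 the excess was 0.71 ± 0.07 (SD, n = 3) and 0.44 ± 0.25, a difference of 0.27. For Lgr5 it was 0.84 ± 0.05 and 0.48 ± 0.12, a difference of 0.36. None of the 3 pairs overlapped, which gave an exact two-sided permutation p = 0.1 for each, the smallest that 3 libraries against 3 allow (adjusted p = 0.129 over 9 such tests). The separation was not particular to the activators: 64.5% of the other 234 promoters stood higher relative to Dkk1 in ALI without overlap.

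Over whole windows the pairs were closer. The difference between cultures was 0.16 for Wnt5a (exact permutation p = 0.5), −0.03 for Rspo2 (exact permutation p = 0.9) and 0.18 for Lgr5 (exact permutation p = 0.1), relative to Dkk1, and only the Lgr5 groups did not overlap, against 44.9% of other promoters. The whole-window changes of Rspo2 and Dkk1 thus differed from each other by less than the spread between libraries.

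**Figure D4:**
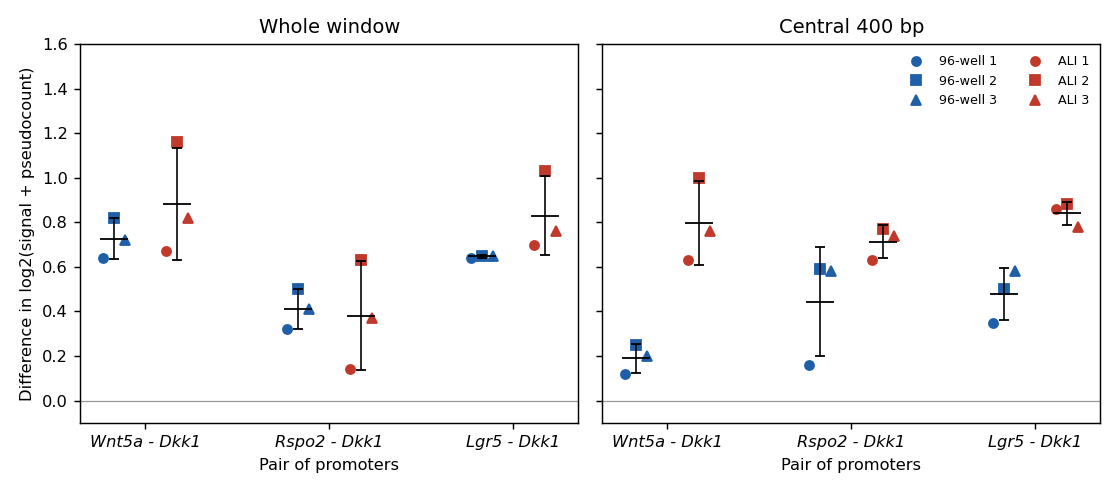
Log2 signal of each activator minus that of Dkk1 in the same library (y axis), over the whole window (left) and the central 400 bp (right), with mean and SD bars (n = 3 per culture). On the right every ALI library (red) lies above every 96-well library (blue) for each pair. On the left this holds for Lgr5 alone.

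The segments called lower in ALI lay mostly in different parts of the windows, but that from −800 to −600 bp was called at both Wnt5a and Dkk1. For each 200 bp segment of every promoter the centred change was fitted in the same way, over 2350 segments, of which 4.55% were called lower in ALI and 4.43% higher. Of the 40 segments of the members, 7 were called lower, 3 at Dkk1, 2 at Rspo2, 2 at Wnt5a and 0 at Lgr5, and 0 were called higher. Groups did not overlap, with ALI lower, in 14 of the 40, against 16.0% of all segments. Segments of a window share reads and are not independent. The variance here too came wholly from the trend, over segments of like signal, not from each segment's own libraries. Far from the TSS, a lower value in ALI was the rule after centring: the median change over promoters was −0.22 at −1000 to −800 bp and −0.21 at 800 to 1000 bp, and 0.05 and 0.02 in the segments on either side of the TSS. As deposited, the mean signal over all promoters was higher in ALI at both ends. It was 4.26 against 3.94 in 96-well libraries at −990 bp, and 6.34 against 5.78 at 990 bp.

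At Wnt5a the called segments were upstream. Signal from −800 to −600 bp was 5.39, 5.53 and 3.34 in ALI replicates 1 to 3 and 5.98, 7.86 and 8.71 in 96-well replicates 1 to 3. Every ALI library was below every 96-well library as deposited, which held for 5 of the 40 member segments and 5.74% of all segments. The centred change was −0.74 ± 0.20 (SE; limma adjusted p = 0.0057), where the table's median was −0.23 and 6 of 235 promoters were called lower. From −600 to −400 bp the change was −0.60 ± 0.16 (limma adjusted p = 0.0067), where the median was −0.19 and 8 promoters were called lower. In the same window the segments from −200 to 0 and 0 to 200 bp changed by 0.12 and 0.08, neither called. Its highest bin was at 21.3, 42.5 and 26.6 in ALI and at 23.1, 28.3 and 39.5 in 96-well libraries, with overlapping groups.

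At Rspo2 they were at the downstream end. Signal from 800 to 1000 bp was 5.26, 8.53 and 4.36 in ALI and 10.1, 8.96 and 12.8 in 96-well libraries, again separate as deposited. The centred change was −0.91 ± 0.17 (SE; limma adjusted p = 4.8e-05), where the median over promoters was −0.21, and 20 of 235 promoters were called lower there. From 600 to 800 bp it was −0.57 ± 0.16 (limma adjusted p = 0.0089), where the median was −0.20 and 20 promoters were called lower. As deposited, the highest bin was at 24.2, 42.4 and 27.7 in ALI and at 25.8, 31.2 and 44.8 in 96-well libraries, with overlapping groups. After centring, segments from −600 to −400 bp (−0.64), 200 to 400 bp (−0.31) and 400 to 600 bp (−0.28) were also lower without overlap. The segments on either side of the TSS changed by −0.29 and −0.20. None of these was called.

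At Dkk1 they included the TSS itself. From −200 to 0 bp the signal was 6.79, 10.1 and 6.74 in ALI against 11, 9.59 and 13.6 in 96-well libraries, with ALI replicate 2 above the lowest 96-well library. The centred change was −0.65 ± 0.16 (SE; limma adjusted p = 0.0033), and from 0 to 200 bp −0.44 ± 0.14 (limma adjusted p = 0.025). In these segments the median over promoters was 0.05 and 0.02, and 10 and 11 of 235 promoters were called lower. The other called segment, from −800 to −600 bp, held little signal, 1.14, 1.84 and 1.50 in ALI against 2.72, 3.59 and 3.19 in 96-well libraries (change −0.90 ± 0.27, limma adjusted p = 0.019). The second peak in the gene, from 600 to 800 bp, changed by 0.02 ± 0.16 (limma adjusted p = 0.95). At Lgr5 the 10 changes ran from −0.68 at −800 to −600 bp to 0.00 at 400 to 600 bp, and the 2 segments from 0 to 400 bp that hold its peak changed by −0.11 and −0.10.

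The call at the downstream end of Rspo2 held with each library left out (limma adjusted p at most 0.0050), and the other 6 were lost without at least 1 library. Without 96-well replicate 1, the calls at Rspo2 from 600 to 800 bp (limma adjusted p = 0.11), Dkk1 from −200 to 0 bp (limma adjusted p = 0.053) and Dkk1 from −800 to −600 bp (limma adjusted p = 0.084) ended. Without 96-well replicate 2, those at Wnt5a from −800 to −600 bp (limma adjusted p = 0.093) and from −600 to −400 bp (limma adjusted p = 0.084) and at Dkk1 from −800 to −600 bp (limma adjusted p = 0.19) ended. Without ALI replicate 3, the farther upstream calls of Wnt5a (limma adjusted p = 0.080) and Dkk1 (limma adjusted p = 0.052) ended. The Dkk1 call from 0 to 200 bp was lost without any of 5 libraries, ALI replicate 2 being the exception (limma adjusted p from 0.059 to 0.11). No member segment was called on the deposited scale or without the variance trend, 4 were with a pseudocount of 1 times the median, and 12 with the 58 lowest promoters left out.

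**Figure D5:**
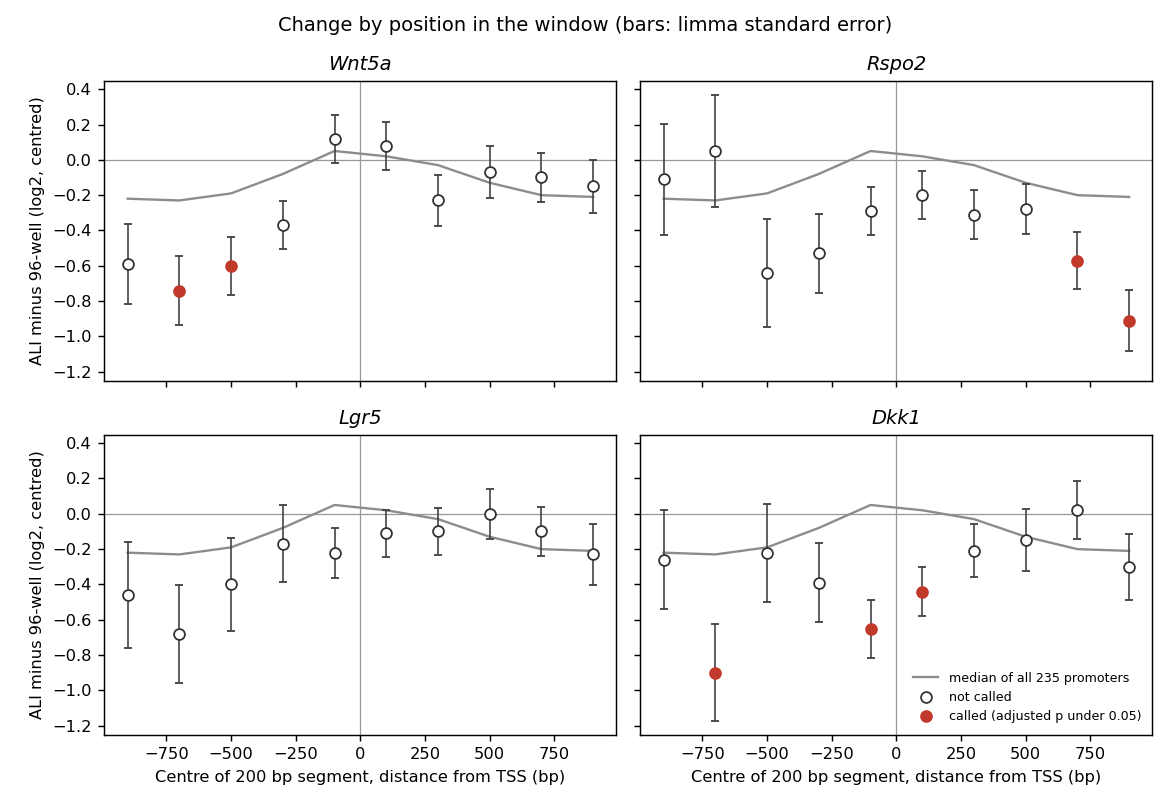
Change between cultures (y axis, ALI minus 96-well, log2, centred) in each 200 bp segment against distance from the TSS (x axis, bp), with limma SE bars, called segments in red, and the median of the 235 promoters as a grey line. The called segments lie upstream at Wnt5a, at the downstream end at Rspo2, and at the TSS and at −800 to −600 bp at Dkk1, with none at Lgr5.

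By ratios of signal within its own window, no member was called. The log2 ratio of the central 400 bp to the outer 200 bp on each side changed by 0.53 ± 0.23 (SE) at Rspo2 (limma adjusted p = 0.16), 0.37 ± 0.24 at Wnt5a (limma adjusted p = 0.30), 0.13 ± 0.22 at Lgr5 (limma adjusted p = 0.72) and −0.22 ± 0.20 at Dkk1 (limma adjusted p = 0.51). The median over the table was 0.24, and 72 of 235 promoters were negative like Dkk1. For Rspo2 the ratio, on a linear scale, was 5.33, 5.93 and 7.60 in ALI and 3.05, 4.06 and 4.78 in 96-well libraries, without overlap, as in 28.5% of promoters in either direction. Limma called 3 promoters by this ratio (1.28%), none of them a member. Relative to Dkk1, the ratio of each activator was higher in ALI than in 96-well libraries, by 0.74 log2 units at Rspo2, 0.59 at Wnt5a and 0.34 at Lgr5, without overlap, although ALI replicate 1 and 96-well replicate 1 were both at −0.50 for Wnt5a to 2 decimals. Such separation also held for 48.3% of other promoters (exact permutation p = 0.1, adjusted p = 0.129).

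The balance of upstream and downstream signal gave no call at the members either. The log2 ratio of the upstream to the downstream 1000 bp changed by −0.28 ± 0.13 (SE) at Dkk1 (limma adjusted p = 0.23), −0.20 ± 0.12 at Wnt5a, −0.19 ± 0.14 at Lgr5 and 0.05 ± 0.13 at Rspo2, with none called, and 10 promoters (4.26%) were called in the table. In linear terms the downstream share of Dkk1 was 77.9%, 75.4% and 75.1% in ALI and 71.4%, 67.9% and 74.1% in 96-well libraries. These shares do not overlap, with ALI higher, as at 13.2% of the 234 promoters with signal in every library, whereas the log2 ratios, with the pseudocount, do overlap.

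Of 81 other Wnt pathway genes listed, 7 were in the table, and after centring 2 of them were called lower and 0 higher, with a median change of −0.09, against 10.2% called lower, 11.5% called higher and a median of −0.03 over all promoters. The 2 were Tcf7, a nuclear effector (−0.37 ± 0.10, limma adjusted p = 0.0021), and Cd44, a cell-surface receptor often used as a Wnt target (−0.33 ± 0.12, limma adjusted p = 0.027). Lef1, a partner of β-catenin like Tcf7, was at −0.22 ± 0.09 (limma adjusted p = 0.060), and Axin2, a feedback inhibitor and Wnt target, at 0.24 ± 0.10 (limma adjusted p = 0.095). The ligands Wnt3 (−0.09) and Wnt3a (−0.01) and the receptor Fzd8 (0.06) did not pass either. On the deposited scale 0 of the 7 were called. Wnt3 and Wnt3a were weak beside Wnt5a, at 3.82 ± 0.61 and 4.35 ± 1.00 (SD, n = 3) against 14.4 ± 4.13 in ALI, in windows of equal length.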

How the data were processed

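The authors deposited 1 table of signal, which the file headers name as normalized to sequencing depth: deepTools means in bins of 20 bp around 235 TSSs in 6 libraries, rows of zeros skipped. The normalization formula is not stated. The submitters' processing notes name GRCm39, deepTools 3.5.1, Bowtie2 2.5.1, Picard, SAMtools 1.16.1 and Trim Galore 0.6.10, without roles. The sources used here do not say whether reads were shifted for the Tn5 offset or duplicates removed. Such a shift is smaller than 1 bin.

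Window, segment and ratio values were computed as log2(signal + 1.06), the pseudocount being 0.1 of the median promoter signal, and tested with limma 3.58.1 in R 4.3.3 (eBayes with trend) over all promoters or segments, tested first on simulated data. The simulated noise was independent and of equal spread at every promoter or segment, without differences in library level. It therefore could not show how the fits handle such features of the real libraries. No count test was run. Differences from Dkk1 used an exact permutation test. Named genes were the members, listed Wnt genes (those called, with Tcf7, Lef1 and Axin2 always) and the 3 most similar profiles per member. The members and lists were chosen with earlier results of these data known. Same-numbered libraries were not paired by the labels. At least 99.5% of bins differed between any pair of libraries. Alternatives were other pseudocounts, scalings, regions, segment lengths, a filter, no trend, a replicate block and each library left out.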

Additional observations from a re-analysis of the deposited data

How the results depend on the processing

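The labels did not pair same-numbered libraries of the cultures, and r of their deviations from the group means was 0.67, −0.61 and −0.60. Between libraries of unlike number it was −0.72 to 0.81, highest for ALI replicate 2 with 96-well replicate 3. The replicate block gave 39 promoters called after centring, 0 by centre-to-flank ratio, 1 by upstream-to-downstream ratio and 156 segments. No member's whole-window or ratio call changed with it. After centring 51 promoters were called, 29 with a pseudocount of 1 times the median, 90 without the 58 lowest promoters, 0 without the trend, and 22 to 58 with 1 library left out (22 without 96-well replicate 1, 25 without 96-well replicate 2). Calls by centre-to-flank ratio (3) became 0 with a pseudocount of 0.01 of the median or narrower regions, 1 against all other bins, 6 without the trend, 27 with a trend on window level, and 0 to 22 with 1 library left out. Calls by upstream-to-downstream ratio (10) became 0, 3 (pseudocounts of 0.01 and 1 times the median), 21 (filter), 0 (200 bp on each side), 27 (trend on window level) and 0 to 4 with 1 library left out. The 211 segments became 69 with the larger pseudocount, 371 with the filter, 388 at 100 bp, 5 as deposited, 7 without the trend, and 72 to 230 with 1 library left out. The cause of these shifts was not tested.

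As deposited, changes near 0 turned sign: Wnt5a was 0.00 with the larger pseudocount, 0.27 in the central 400 bp and −0.21 to 0.17 with 1 library left out (0.11 without ALI replicate 1, 0.10 without ALI replicate 3, 0.17 without 96-well replicate 3), Lgr5 −0.15 to 0.20 (−0.15 without ALI replicate 2, −0.05 and −0.08 without 96-well replicates 1 and 2), Dkk1 −0.27 to 0.01 (0.01 without 96-well replicate 3) and Rspo2 −0.39 to −0.02. After centring, the filter called Wnt5a (−0.22) and Lgr5 (−0.20), quantile normalization (−0.21) and cyclic loess (−0.20) called Wnt5a, whose central 400 bp stood at 0.02. The call of Dkk1 ended with quantile normalization (−0.17), cyclic loess (−0.19), no trend (−0.33), and without ALI replicate 2 (−0.24) or 96-well replicate 1 (−0.32), in a range of −0.41 to −0.24. That of Rspo2 ended without the trend (−0.36) alone among these settings, at −0.40 to −0.31 with 1 library left out. Ratios reversed at Lgr5 (−0.01 against all other bins), Wnt5a (0.04) and Rspo2 (−0.09) with 200 bp on each side, and at Rspo2 with 1 library left out (−0.01 to 0.16, at 0.00 without ALI replicate 1 and −0.01 without 96-well replicate 3). Rspo2 relative to Dkk1 was 0.27 in the central 400 bp, and −0.16 to 0.08 over the window with 1 library left out (0.08 without ALI replicate 1, 0.01 without 96-well replicate 2), where Wnt5a gave 0.02 to 0.26 and Lgr5 0.09 to 0.25. With 1 library left out, the centre-to-flank change was 0.10 to 0.64 at Wnt5a, 0.35 to 0.68 at Rspo2, 0.04 to 0.24 at Lgr5 and −0.31 to −0.17 at Dkk1, and the upstream-to-downstream change −0.28 to −0.08 at Wnt5a, −0.25 to −0.09 at Lgr5 and −0.39 to −0.17 at Dkk1. Cyclic loess, the trend on window level, the settings tried for the central 400 bp, and the pairs with Dkk1 by centre or ratio were chosen after seeing the data. With 3 libraries per culture and depth known only in relative terms, small changes could not be resolved.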
